A study of Mus musculus with 6 samples.

Results

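Nuclear receptors are transcription factors that bind DNA directly, most of them under the control of small lipid-soluble ligands such as hormones, vitamins, bile acids, oxysterols and fatty acids. Many bind as partners of a retinoid X receptor (RXR), recruit corepressors without ligand and exchange them for coactivators with ligand. In hepatocytes they set bile acid, lipid, glucose and drug metabolism, and some of them also run the circadian clock. The 36 nuclear receptor genes described here were chosen as a list of gene names, by a rule that uses no measured value although earlier results of these data were known, out of 35683 genes in the tables, and all 36 had at least 1 transcript there.

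Gene expression was measured by RNAseq in 6 macroscopic liver tumors, 3 from each of 2 male CMRtdT mice on a C57BL/6 background. These mice carry a *Ctnnb1* allele whose exon 3 is removed by Cre, which stabilizes β-catenin, a tdTomato reporter that Cre switches on at the *ROSA26* locus, and the *MUP-uPA* transgene, which injures hepatocytes. Both animals were fed a high-fat diet (HFD) from 6 weeks of age and were injected at 8 weeks with an AAV in which the hepatocyte-specific TBG promoter drives Cre. The tumors were taken 6.5 months after injection, after food had been withdrawn for some hours. All 6 tumors therefore share 1 genotype and 1 treatment. Livers without tumor are not analysed here, so a level below is a level in tumor and not a change from normal liver. The tumors of a mouse share that animal, and whether they were separate clones is not given in the labels.

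Levels are given in TPM, the share of all transcripts that a gene's transcripts take, scaled to a fixed total and corrected for length, so that genes can be compared with each other. The totals ran from 19130532 to 27681766 estimated counts per tumor. Mitochondrial genes took 6.85% to 8.34% of the counts in mouse 1 and 12.9% to 18.4% in mouse 2, which lowers all other TPM values in mouse 2. Tumor 1 of mouse 1 stood apart from the other 5 tumors outside the receptor genes. The 9 measured hepatocyte markers, among them *Alb* and *Apob*, lay at 1.46% to 8.51% of the median of the other 5 tumors there, and their sum was 1300 TPM against 21847 to 37590 TPM. These markers were thus high in 5 tumors. They measure hepatocyte genes and not the tissue of origin, so they cannot decide whether the tissue label holds for tumor 1 of mouse 1. That library is reported both with and apart from the others and is called the marker-low tumor. The other tumors of mouse 1 were closest to each other of any pair, with a chi-square per gene of 7.76 by mean and 1.38 by median. The next lowest median was 6.16, between tumors 1 and 2 of mouse 2. A mean beyond counting noise cannot decide whether 2 libraries come from separate tumors. Tumors 2 and 3 of mouse 1 were kept as separate samples, as labelled.

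4 promoters are printed because their genes carry the main pattern. *Rarb* and *Nr1d2* were the most abundant of the 36 in the marker-low tumor, and *Nr1h4* and *Nr0b2*, a receptor and its target, were among those lowest there relative to the other tumors. The sequences are those of RefSeq on GRCm38.p6, which holds a promoter for 33 of the 36 genes, and run from 250 bases before to 50 bases after an annotated start, which can be that of an internal transcript, in the direction of transcription. Capitals mark the letters searched for on both strands. In *Rarb* they are a DR5 element, a direct repeat of the receptor half-site AGGTCA in which a copy could also be written as AGTTCA or GGGTCA, or as GGTTCA, with the copies 5 bases apart, which is the kind of element that RAR with RXR is known to bind. In *Nr1d2* and *Nr1h4* they are the half-site AGGTCA itself, read on the other strand in *Nr1h4*, and in *Nr0b2* the E-box CACGTG, to which the clock factors CLOCK and BMAL1 bind.
Rarb: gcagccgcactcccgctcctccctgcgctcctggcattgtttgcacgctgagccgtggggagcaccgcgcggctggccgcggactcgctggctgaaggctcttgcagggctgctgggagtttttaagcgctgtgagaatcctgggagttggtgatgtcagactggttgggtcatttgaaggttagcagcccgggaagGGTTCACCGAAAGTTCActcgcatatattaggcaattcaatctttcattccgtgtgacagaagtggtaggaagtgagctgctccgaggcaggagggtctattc
Nr1d2: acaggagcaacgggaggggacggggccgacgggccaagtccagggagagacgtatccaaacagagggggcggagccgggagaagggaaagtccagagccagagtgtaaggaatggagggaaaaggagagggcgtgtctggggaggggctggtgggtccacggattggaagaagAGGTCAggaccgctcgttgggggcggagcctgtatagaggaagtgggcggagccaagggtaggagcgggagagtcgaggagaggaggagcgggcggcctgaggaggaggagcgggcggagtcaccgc
Nr1h4: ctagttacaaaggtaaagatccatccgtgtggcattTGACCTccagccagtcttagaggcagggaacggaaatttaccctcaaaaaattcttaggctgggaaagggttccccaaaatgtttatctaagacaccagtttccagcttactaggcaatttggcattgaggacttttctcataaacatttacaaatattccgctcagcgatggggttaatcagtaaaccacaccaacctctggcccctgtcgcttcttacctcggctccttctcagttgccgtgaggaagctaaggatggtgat
Nr0b2: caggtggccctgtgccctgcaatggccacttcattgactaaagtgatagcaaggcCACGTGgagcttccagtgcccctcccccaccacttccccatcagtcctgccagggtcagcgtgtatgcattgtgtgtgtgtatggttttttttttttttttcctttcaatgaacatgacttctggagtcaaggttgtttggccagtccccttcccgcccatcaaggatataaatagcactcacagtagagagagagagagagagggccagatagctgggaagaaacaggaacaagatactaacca
The *Rarb* sequence lies at chr14:16575427-16575726 on the minus strand and its element starts 53 bases before the start used there. That of *Nr1d2* lies at chr14:18239057-18239356 on the minus strand, that of *Nr1h4* at chr10:89506609-89506908 on the minus strand and that of *Nr0b2* at chr4:133553126-133553425 on the plus strand. The *Rarb* and *Nr1h4* windows lie at starts inside these genes, downstream of the outermost annotated start, and those of *Nr1d2* and *Nr0b2* lie at the outermost start. A DR5 element by these letters was found in 0.0974% of all 32851 promoters, and *Rarb* was the 1 nuclear receptor gene that had it. The half-site AGGTCA was found in 16.3% of all promoters and in 11 of 48 promoters of the 36 genes (22.9%), and CACGTG in 7.15% and in 5 of 48 (10.4%). CTTTGAT, the letters of a TCF/LEF site, was found in 3.73% of all promoters and in 1 of the 48, that of *Nr2f2*. A match describes letters and is not a measured binding site.

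The plot of levels by tumor gives the 32 genes whose mean over the 6 tumors reached 1 TPM. The other 4 were *Nr4a2*, *Nr4a3*, *Vdr* and *Hnf4g*. *Vdr*, the vitamin D receptor, reached at most 0.330 TPM and 4 counts in a tumor, and *Hnf4g*, which binds fatty acids, had 1 count in 1 tumor and 0 in the other 5. A count of 0 allows up to 3 counts. Summed over all 36 genes, the receptors held 504 TPM in the marker-low tumor and 536 to 825 TPM in the other 5 tumors. The total was thus near the range of the others, but the genes that made it up were not the same. *Rarb*, *Nr1d2* and *Thra* led in the marker-low tumor with 45.5% of the sum. *Rxra* and *Nr1h3* were among the 3 leading genes in each of the other 5 tumors, with *Ppara* in 4 of them and *Nr1i3* in the other.

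**Figure D1:**
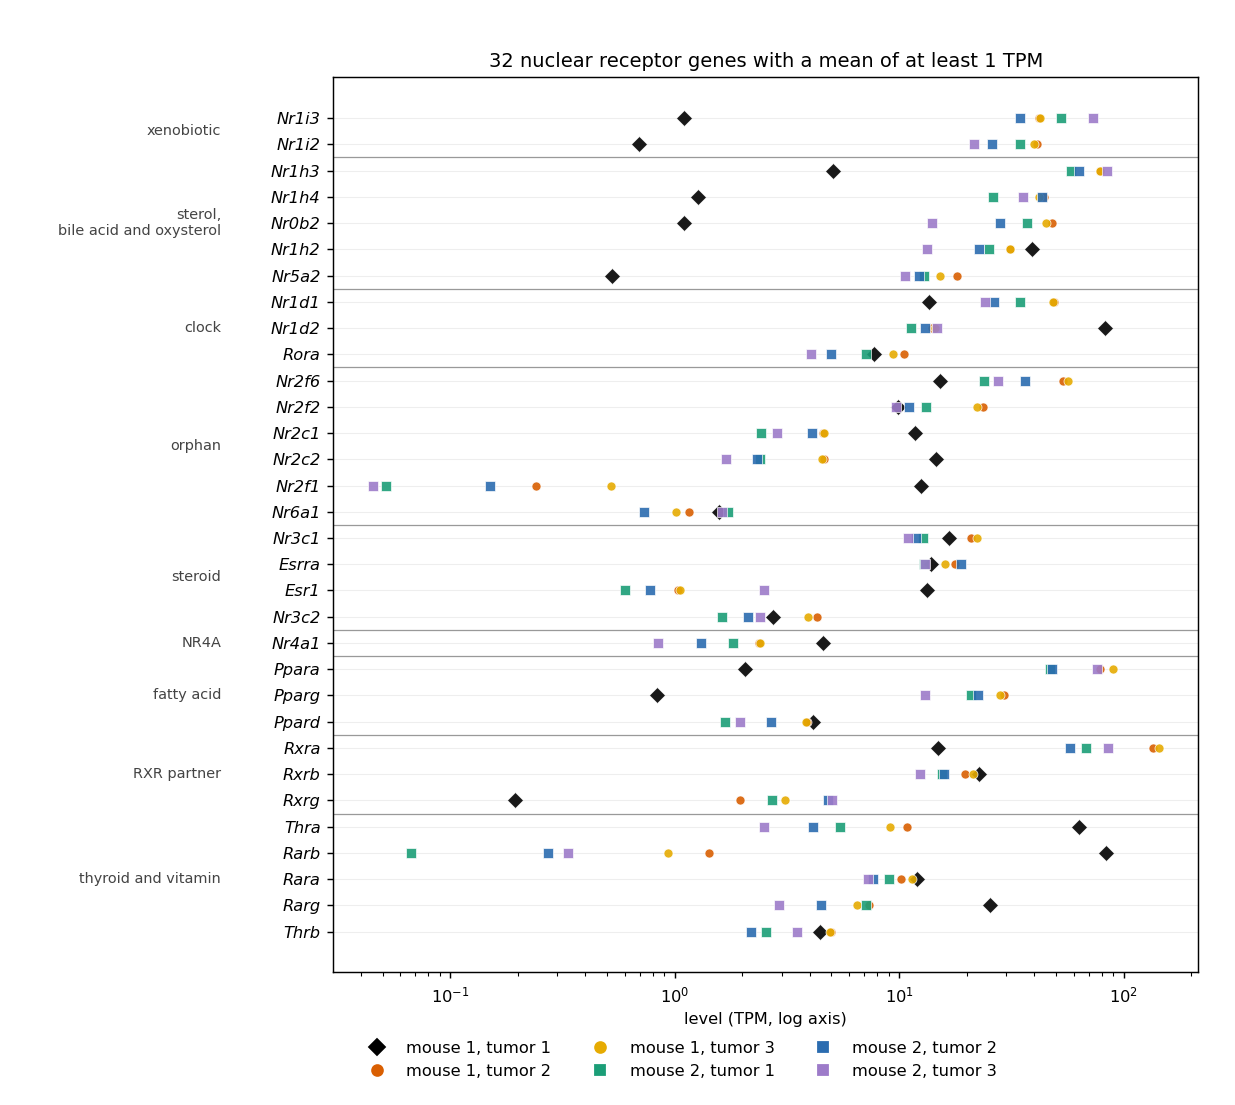
Level of each nuclear receptor gene whose mean reached 1 TPM (vertical axis, grouped by role) in each of the 6 tumors, in TPM on a log axis. Black diamonds are the marker-low tumor (tumor 1 of mouse 1), circles the other tumors of mouse 1 and squares those of mouse 2. The diamonds of *Rarb*, *Thra*, *Esr1*, *Nr1d2* and *Nr2f1* lie far to the right of the other points, and those of 9 genes such as *Ppara* and *Nr1i2* far to the left.

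The xenobiotic receptors PXR (*Nr1i2*) and CAR (*Nr1i3*), which induce drug-metabolizing enzymes, were among the lowest in the marker-low tumor. *Nr1i2* was at 0.694 TPM in that tumor, at 41.3 and 39.9 TPM in the other tumors of mouse 1, and at 34.6, 26.0 and 21.6 TPM in tumors 1 to 3 of mouse 2. *Nr1i3* was at 1.10 TPM there, at 42.2 and 42.4 TPM in the other tumors of mouse 1, and at 52.4, 34.5 and 73.1 TPM in mouse 2. The lowest of the other 5 tumors was 31.2-fold above the marker-low tumor for *Nr1i2* and 31.3-fold for *Nr1i3*, and the values did not overlap. Among the 5 tumors the 2 receptors ran in different orders, and tumor 3 of mouse 2 had the lowest *Nr1i2* and the highest *Nr1i3*. CAR held 50.6% to 77.2% of the TPM of the pair in the 5 tumors and 61.4% in the marker-low tumor, which lies inside that range.

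Of 11 listed CAR and PXR targets, 10 had a mean of at least 1 TPM. Among these, 9 lay at least 4-fold below the median of the other tumors in the marker-low tumor and none lay 4-fold above. Of all genes whose mean reached 1 TPM, 9.99% lay that far below in the marker-low tumor and 21.9% that far above. *Cyp3a11*, a steroid and drug hydroxylase, was at 27.8 TPM there and at 1353, 1270, 227, 109 and 815 TPM in the others, in the same order as above. *Por*, the reductase that passes electrons to all microsomal P450 enzymes, was at 50.1 TPM there and at 236 to 482 TPM in the others. *Cyp2b10*, the classical CAR target, which was named here after its values were seen, did not exceed 0.103 TPM in any of the 6 tumors, while *Nr1i3* itself was at 34.5 TPM or more in 5 of them.

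The sterol and bile acid receptors formed a second group of low values. *Nr1h4*, which encodes the bile acid receptor FXR, was at 1.27 TPM in the marker-low tumor, at 44.4 and 42.1 TPM in the other tumors of mouse 1, and at 26.1, 43.5 and 35.7 TPM in mouse 2. *Nr0b2* encodes SHP, a receptor without a DNA-binding domain that FXR induces and that represses bile acid synthesis. It was at 1.10 TPM in the marker-low tumor, at 48.0 and 45.2 TPM in the other tumors of mouse 1, and at 37.2, 28.1 and 14.0 TPM in mouse 2. The tumor that stood apart was thus 20.6-fold and 12.8-fold below the lowest of the others for these genes. *Nr5a2*, the gene of LRH-1, which activates *Nr0b2* and the bile acid enzymes, was at 0.525 TPM there against 10.6 to 18.0 TPM.

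The FXR targets were low in the same tumor. 7 of 9 lay at least 4-fold below the median of the others there, against 9.99% of all genes. The sum of the 9 was 23.4 TPM there against 525 to 900 TPM. The list also holds *Cyp7a1* and *Cyp8b1*, enzymes of the bile acid synthesis that SHP represses. All 9 were lowest in the marker-low tumor, these enzymes among them. *Abcb4*, the phospholipid exporter of bile, was at 4.66 TPM there and at 97.1 to 263 TPM in the others. *Cyp8b1*, the sterol 12α-hydroxylase that SHP represses, varied widely among the 5 tumors, with 55.8 and 57.8 TPM in the other tumors of mouse 1 and 5.35, 3.08 and 139 TPM in mouse 2. The tumor with the highest *Cyp8b1* was the one with the lowest *Nr0b2* of the 5, but the other 4 did not follow that order. *Cyp7a1*, the rate-limiting enzyme of bile acid synthesis, stayed between 25.8 and 48.8 TPM in the 5 tumors.

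The liver X receptors, which sense oxysterols, differed from each other in the marker-low tumor. *Nr1h3*, the gene of LXRα, was at 5.07 TPM in the marker-low tumor, at 78.9 and 78.5 TPM in the other tumors of mouse 1, and at 58.3, 63.6 and 84.1 TPM in mouse 2. *Nr1h2*, the gene of the widely expressed LXRβ, was at 39.0 TPM in the marker-low tumor, above the 31.2 and 31.2 TPM of tumors 2 and 3 and the 25.1, 22.7 and 13.3 TPM of mouse 2. After TMM scaling, which equalizes the bulk of the genes between tumors, *Nr1h2* was no longer above the median of the others. LXRβ made up 88.5% of the TPM of the pair in the marker-low tumor and 13.7% to 30.1% in the others. Such a share within 1 tumor does not depend on how tumors are scaled against each other. Of 11 LXR targets, 5 were at least 4-fold below the median of the others in the marker-low tumor and 1 was at least 4-fold above. The shares of all genes were 9.99% and 21.9%. The 1 above was *Mylip*, named after its values were seen, at 14.8 TPM against 0.962 to 3.34 TPM (after TMM scaling it was not past 4-fold). *Abca1*, the cholesterol exporter, was named after its values were seen and was at 13.6 TPM there against 8.37 to 12.8 TPM, whereas *Abcg8*, which exports sterols into bile, was at 1.68 TPM against 25.1 to 57.1 TPM.

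Among the fatty acid receptors, the 2 most abundant were low in the marker-low tumor. *Ppara*, the receptor that drives fatty acid oxidation in fasting, was at 2.07 TPM in the marker-low tumor, at 78.5 and 89.4 TPM in the other tumors of mouse 1, and at 46.9, 48.2 and 76.5 TPM in mouse 2. *Pparg*, the lipid storage receptor of adipocytes and fatty liver, was at 0.835 TPM in that tumor, at 29.2 and 28.2 TPM in the other tumors of mouse 1, and at 20.9, 22.5 and 13.1 TPM in mouse 2. *Ppard*, which is expressed in most tissues, was at 4.13 TPM in the marker-low tumor and at 1.68 to 3.89 TPM in the others, a difference that turned around after TMM scaling. It made up 58.7% of the summed PPAR level there against 2.13% to 3.66% elsewhere. Of 15 PPARα targets, 13 lay at least 4-fold below the median of the others in the marker-low tumor, against 9.99% of all genes. *Vnn1*, the pantetheinase gene, measured 0.832 TPM in mouse 2's tumor 1 and 72.1 to 180 TPM in the other 4 of the 5 tumors, although *Ppara* was at 46.9 TPM in that tumor.

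**Figure D2:**
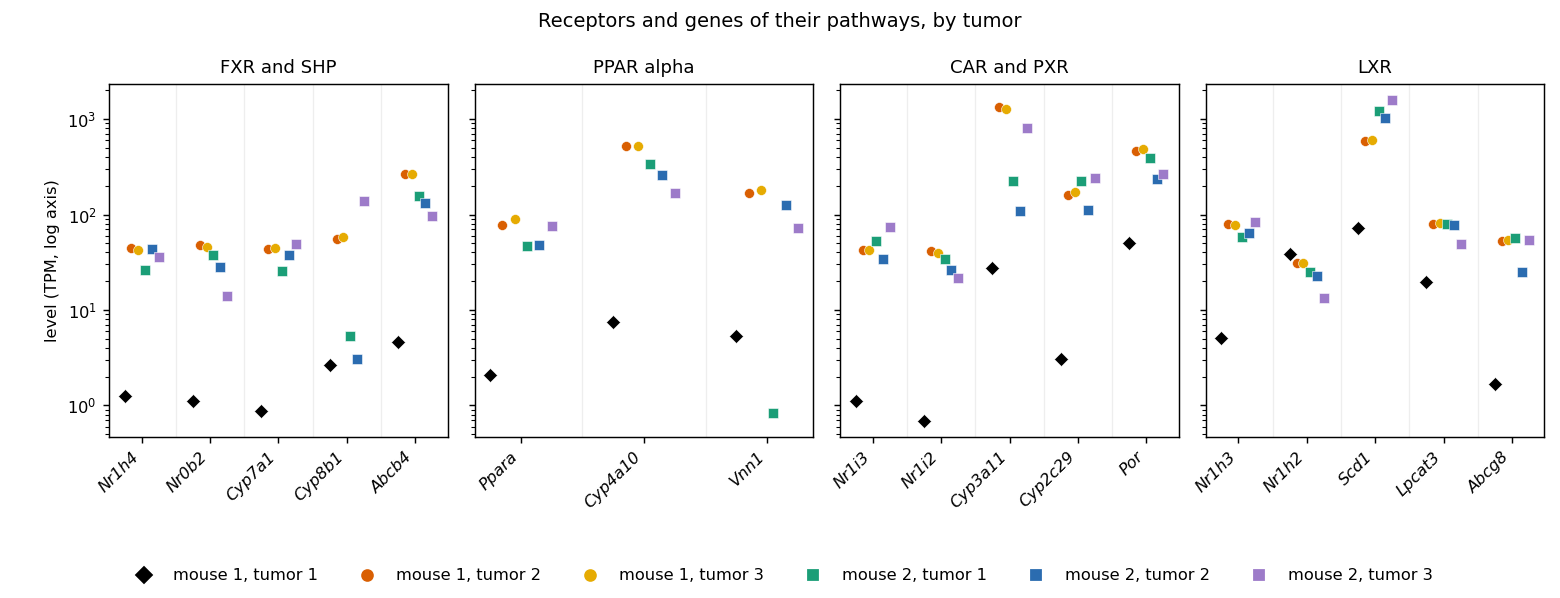
Levels in TPM (log axis) of the FXR, PPAR alpha, CAR, PXR and LXR genes and of genes of their pathways, each point 1 tumor with the same symbols as in the plot of levels. Black diamonds (tumor 1 of mouse 1) lie lowest for every gene shown other than *Nr1h2*, which was highest there, and *Vnn1*, which was lowest at 0.832 TPM in tumor 1 of mouse 2.

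The RXR genes encode the shared partners of these receptors. *Rxra* had the highest mean of all 36 genes, 98.0 ± 39.2 TPM (SD, n = 5) over the tumors other than the marker-low one. It was at 14.9 TPM in the marker-low tumor, at 136 and 143 TPM in the other tumors of mouse 1, and at 68.3, 57.6 and 85.3 TPM in mouse 2. *Rxrb* varied less and was at 22.7 TPM in the marker-low tumor and 12.4 to 21.3 TPM in the others, and was below their median there after TMM scaling. RXRα therefore held 39.4% and RXRβ 60.1% of the RXR level in the marker-low tumor, against 73.5% to 86.3% and 12.1% to 20.3% in the other tumors. *Rxrg* was low throughout, at 0.194 TPM with 5 counts in the marker-low tumor and at 1.95 to 5.01 TPM in the others.

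**Figure D3:**
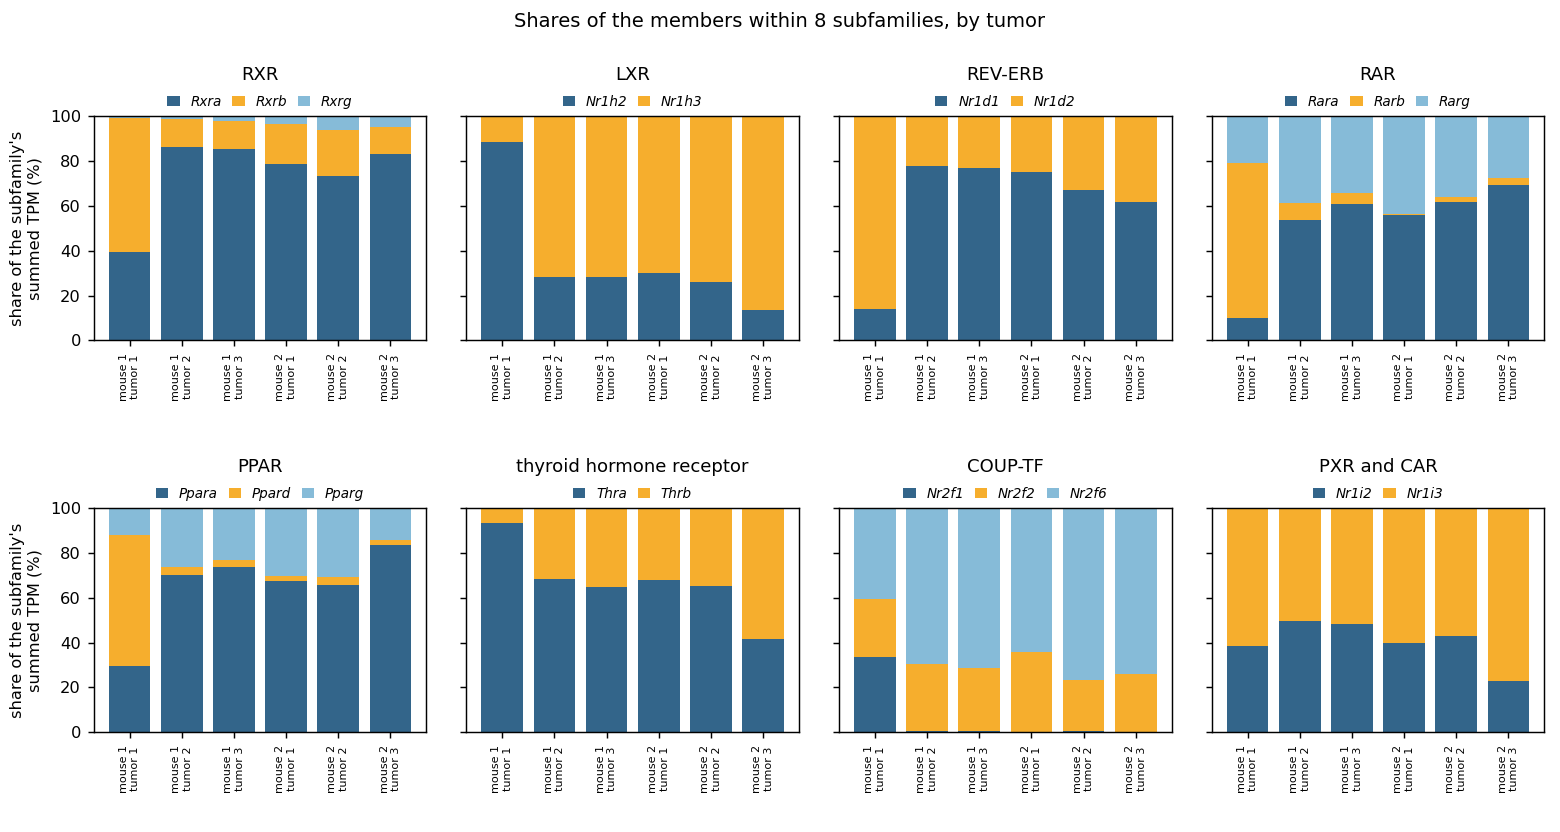
Share of each gene in the summed TPM of its subfamily (bars, percent) in each tumor, for 8 subfamilies. In the marker-low tumor (first bar of each panel) RXRβ, LXRβ, *Nr1d2*, *Rarb* and *Ppard* hold 60.1%, 88.5%, 85.9%, 69.2% and 58.7% of their subfamilies, and in none of the other 5 tumors does any of them hold over 38.1%.

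Among the 36 receptors, the highest level in the marker-low tumor was that of a retinoic acid receptor. *Rarb* (ENSMUSG00000017491), itself a known target of retinoic acid, was at 83.8 TPM with 4056 counts there, at 1.42 and 0.933 TPM in the other tumors of mouse 1, and at 0.0668, 0.272 and 0.334 TPM in mouse 2. It lay 58.8-fold above the highest of the others. *Rarg* was at 25.3 TPM in that tumor and at 2.91 to 7.34 TPM in the others, while *Rara* was at 12 TPM against 7.28 to 11.4 TPM and lay below the median of the others after TMM scaling. RARβ thus made up 69.2% of the RAR level there and 0.412% to 7.51% elsewhere. *Stra6*, the retinol transporter and 1 of 9 listed retinoic acid targets, was at 123 TPM in that tumor, at 2.67 and 3.35 TPM in the other tumors of mouse 1, and listed at 0 in all 3 tumors of mouse 2. 5 of the 9 were highest in that tumor, where TPM was higher for most genes. Beside *Stra6* these were *Cyp26a1*, *Cyp26b1*, *Crabp1* and *Crabp2*, named after their values were seen, all of them low. *Cyp26a1*, which degrades retinoic acid, was at 1.32 TPM against 0 to 0.266 TPM, and *Cyp26b1*, an enzyme of the same kind, at 1.03 TPM against 0 to 0.137 TPM. *Crabp1* and *Crabp2*, which bind retinoic acid in the cell, were at 0.345 and 0.1202 TPM there and listed at 0 in the others. *Dhrs3* was at 78.9 TPM against 33.2 to 79.8 TPM and *Tgm2* at 119 TPM against 83.6 to 122 TPM.

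The low *Rarb* and *Stra6* values of tumors 2 and 3 of mouse 1 were set beside a wider set of genes. 34 genes reached 100 TPM or more in the marker-low tumor and at most 0.1 TPM in every tumor of mouse 2. In tumors 2 and 3 of mouse 1 they had a median of 1.82% and 1.72% of their level in tumor 1. *Rarb* was at 1.70% and 1.11% of its own level there and *Stra6* at 2.17% and 2.73%. By its levels *Stra6* falls within the rule that chose the set, and *Rarb* does not. *Nr2f1* was at 1.93% and 4.14%, the latter above the highest of the set in tumor 3, 3.04%. The part of the set's low level in the *Rarb* values of tumors 2 and 3 was not tested.

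Of the thyroid hormone receptor genes, *Thra* was high in the same tumor and *Thrb* was not. *Thra* was at 63.1 TPM in the marker-low tumor, at 10.8 and 9.12 TPM in the other tumors of mouse 1, and at 5.43, 4.13 and 2.51 TPM in mouse 2. It lay 5.83-fold above the highest of the others. *Thrb*, the main form in hepatocytes, was at 4.46 TPM there, inside the 2.19 to 4.99 TPM of the others. *Thra* held 93.4% of the pair there and 41.7% to 68.4% elsewhere. Of 7 thyroid hormone targets, *Thrsp*, a lipogenic gene, was at 8.30 TPM in that tumor against 79.6 to 163 TPM, and *Dio1*, the deiodinase that activates thyroid hormone, at 29.0 TPM against 23.8 to 122 TPM. *Hr*, a corepressor gene that was named after its values were seen, was the 1 that lay at least 4-fold above, with 5.27 TPM against 0.408 to 0.537 TPM. Of all genes 21.9% lay that far above, and *Hr* was not past 4-fold after TMM scaling.

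REV-ERBα (*Nr1d1*) and REV-ERBβ (*Nr1d2*), heme-binding repressors of the circadian clock, lay on opposite sides of the other tumors in the marker-low tumor. *Nr1d1* was at 13.5 TPM there, at 48.9 and 48.8 TPM in the other tumors of mouse 1, and at 34.5, 26.6 and 24.1 TPM in mouse 2. *Nr1d2* (ENSMUSG00000021775) was at 82.4 TPM there, at 14.0 and 14.4 TPM in the other tumors of mouse 1, and at 11.3, 13.0 and 14.8 TPM in mouse 2. It lay 5.56-fold above the highest of the others. Among those it was the steadiest, on the TPM scale, of the 30 receptor genes whose mean there reached 1 TPM. Its level there was 13.5 ± 1.42 TPM (SD, n = 5). After TMM scaling its values in the other tumors of mouse 1 were both below every tumor of mouse 2. REV-ERBβ thus made up 85.9% of the pair in that tumor and 22.2% to 38.1% elsewhere. *Rora*, an activator at the same sites, was at 7.75 TPM there, at 10.5 and 9.42 TPM in the other tumors of mouse 1, and at 7.11, 4.99 and 4.06 TPM in mouse 2. Of 15 clock genes, 1 lay 4-fold below and none 4-fold above in the marker-low tumor, against 9.99% and 21.9% of all genes. *Hlf*, a clock output factor, was the low one at 0.971 TPM against 14.1 to 20 TPM, and *Dbp*, an output factor of the same family, was at 44.4 TPM, inside the 39.0 to 70.2 TPM of the others. The hour at which each mouse was killed is not given in the labels.

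Several of these genes are neighbors. *Rarb*, *Thrb* and *Nr1d2* lie in this order on chromosome 14, at 16430839 to 17082331, 17659225 to 18040097 and 18204056 to 18239106, and the outer 2 were high in the marker-low tumor while *Thrb* was not. *Thra* (98740776 to 98769006) and *Nr1d1* (98767932 to 98775377) overlap at their ends on opposite strands of chromosome 11, with *Rara* further along at 98927800 to 98974942. The sources used here do not say whether strand was used in assigning reads, so reads from the overlap of *Thra* and *Nr1d1* cannot be told apart. In the marker-low tumor, *Thra* was above and *Nr1d1* below every other tumor.

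Among the orphan receptors, COUP-TFI (*Nr2f1*) was nearly absent outside the marker-low tumor. It was at 12.5 TPM with 367 counts there and at 0.0452 to 0.519 TPM, with 4 to 22 counts, in the others. COUP-TFII (*Nr2f2*), which is expressed in veins and mesenchyme, was at 9.87 TPM in the marker-low tumor, at 23.6 and 22.2 TPM in the other tumors of mouse 1, and at 13.2, 11.0 and 9.67 TPM in mouse 2. *Nr2f2-204*, of 636 bases, held 43.0% of its level in the marker-low tumor and 46.3% to 69.3% in the others. *Nr2f6*, the most abundant of the 3, was at 15.2 TPM there, at 53.9 and 56.8 TPM in the other tumors of mouse 1, and at 23.9, 36.4 and 27.5 TPM in mouse 2. Tumors 2 and 3 of mouse 1 had the highest values of both, and tumor 1 of that mouse ranked with or below mouse 2. TR2 (*Nr2c1*) and TR4 (*Nr2c2*), which bind the same repeats as RAR, were at 11.8 and 14.6 TPM in that tumor against 2.43 to 4.64 and 1.70 to 4.61 TPM. *Nr6a1*, a germ cell factor, ran from 0.733 to 1.73 TPM.

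The steroid receptors and the related receptor gene *Esrra* differed less, with 1 exception. The glucocorticoid receptor gene *Nr3c1* was at 16.7 TPM in the marker-low tumor and 10.9 to 22.3 TPM in the others, and the mineralocorticoid receptor gene *Nr3c2* was at 2.76 TPM against 1.62 to 4.30 TPM. *Esrra*, a regulator of mitochondrial genes, was the least variable gene of this group with 13.9 TPM against 12.9 to 18.9 TPM. The estrogen receptor gene *Esr1* was at 13.3 TPM in the marker-low tumor and at 0.602 to 2.51 TPM in the others, and it lay 5.28-fold above the highest of them. Glucocorticoid targets split in that tumor, with *Tat*, a tyrosine-degrading enzyme, at 14.0 TPM against 87.1 to 186 TPM and the metallothionein gene *Mt2* at 227 TPM against 8.01 to 21.0 TPM. *Pck1*, the gluconeogenic enzyme, ran from 9.63 to 218 TPM among the other 5. The immediate early receptor genes *Nr4a1*, *Nr4a2* and *Nr4a3* were low in every tumor, at most 4.58, 0.631 and 0.325 TPM. Of 10 further immediate early genes none lay 4-fold above or below in the marker-low tumor, against 21.9% and 9.99% of all genes. Their sum was 113 TPM there against 54.2 to 87.4 TPM.

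Counted over these 32 genes, 6 lay at least 4-fold above the median of the other 5 tumors in the marker-low tumor on the scale of TPM + 1, namely *Rarb*, *Nr2f1*, *Thra*, *Esr1*, *Nr1d2* and *Nr2c2*. 21.9% of all 12518 genes with that mean did so. 9 lay at least 4-fold below, namely *Ppara*, *Nr1i2*, *Nr1i3*, *Nr1h4*, *Nr0b2*, *Nr1h3*, *Pparg*, *Nr5a2* and *Rxra*, against 9.99% of all genes. The count above was near the share over all genes and the count below was larger than it, which is a description with no test, since 1 tumor was set against 5. TPM was higher for most genes in that tumor. The median log2 ratio over all genes was 0.89 in TPM and 0.09 after TMM scaling. Over the members the medians were 0.20 and −0.72. With TMM scaling 4 genes lay at least 4-fold above, *Rarb*, *Nr2f1*, *Thra* and *Esr1* (10.8% of all genes), and 11 below, the 9 with *Nr1d1* and *Nr2f6* (13.9%). By Dixon's ratio, which sets the gap to the nearest tumor against the whole range, 12 of the 32 had 1 tumor apart, as had 38.8% of all genes, 4 of them with the marker-low tumor high (28.5% of all genes) and 8 with it low (9.15%). After TMM scaling *Nr1d2* lay 1.69 above and *Nr2c2* 1.24 above on the log2 scale.

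**Figure D4:**
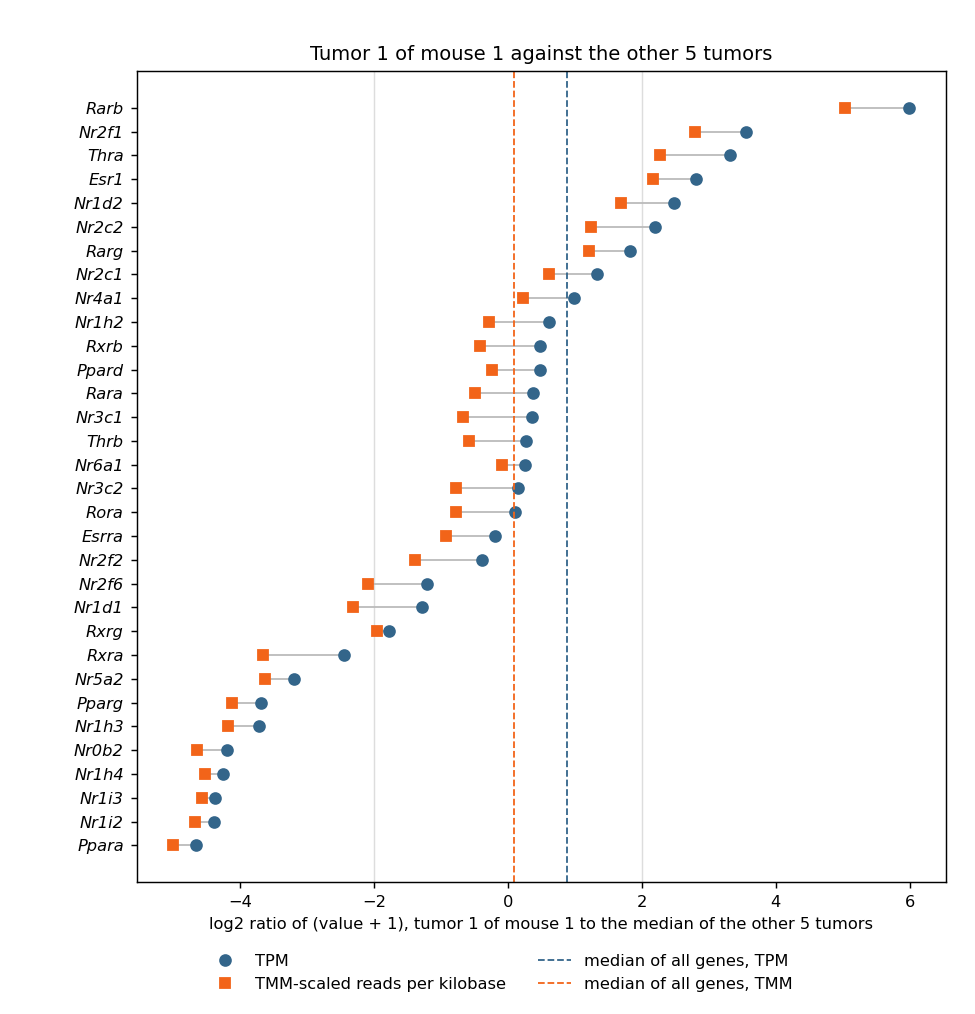
log2 ratio of the marker-low tumor to the median of the other 5 tumors for 32 nuclear receptor genes, on the scale of TPM + 1 (circles) and of TMM-scaled reads per kilobase + 1 (squares), with the median of all genes on each scale as dashed lines. Grey lines mark 4-fold. *Rarb* lies at 5.99 and 5.04, *Ppara* at −4.66 and −4.99, and 9 genes in the middle, such as *Nr1h2*, lie between 0 and 1 on the TPM scale and below 0 after TMM scaling.

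Markers of cell types were read in the same tumors. In the marker-low tumor the receptors *Nr1i2*, *Nr1i3*, *Nr1h3*, *Nr1h4*, *Nr0b2*, *Nr5a2*, *Ppara* and *Pparg* were at 2.01% to 6.46% of the median of the others. *Rxra*, also counted above as 4-fold below, was at 17.4%, and the 9 hepatocyte markers were at 1.46% to 8.51%. These receptors were picked by their low values in the marker-low tumor, so the ranges are only a description. Of the 9 stellate cell and fibroblast markers, 2 lay at least 4-fold above the others in that tumor, against 21.9% of all genes. They were *Acta2* at 50.05 TPM and *Pdgfra* at 17.1 TPM. Only 3 of the 9 were highest there, and the median of the 9 was 78.9% of the median of the others. *Lrat*, a defining stellate gene, was at 0.0964 TPM. The 9 summed to 106 TPM there against 23.4 to 86.3 TPM. The list's median log2 ratio was 0.63 in TPM and −0.29 after TMM scaling. The 5 cholangiocyte markers summed to 44.2 TPM in the marker-low tumor against 4.61 to 36.3 TPM, with *Krt19* at 5.10 TPM. Their median log2 ratio was 0.87 in TPM and −0.04 after TMM scaling. Endothelial markers (8 genes, 15.4 TPM against 38.0 to 93.1 TPM), macrophage markers (8 genes, 94.6 against 169 to 607 TPM), lymphocyte markers (8 genes, 2.36 against 6.95 to 18.5 TPM) and neutrophil markers (5 genes, 1.74 against 10.7 to 24.4 TPM) summed to less there than in any other tumor. *Cd3e* and *Cd3d* were at 0 in it. The part of cell composition in the receptor levels was not tested, and in bulk tumor fewer cells of a type and less RNA per cell cannot be told apart.

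Of 21 coactivator and corepressor genes, 2 lay at least 4-fold above the others in the marker-low tumor and none below, against 21.9% and 9.99% of all genes. *Ncor1*, the corepressor that holds histone deacetylase at unliganded receptors, was at 62.7 TPM there against 18.0 to 35.95 TPM, and *Hdac3*, its deacetylase, at 58.8 TPM against 20.3 to 25.1 TPM. *Ncoa1* (20.3 TPM against 1.99 to 4.68 TPM) and *Pprc1* (21.9 TPM against 2.43 to 3.96 TPM) were the 2 past 4-fold. After TMM scaling none was, and the list's median log2 ratio of 1.27 became 0.40, against the 0.89 and 0.09 of all genes. Of 13 nuclear receptor genes outside the 36, *Hnf4a*, the master regulator of hepatocyte genes, was at 5.08 TPM in that tumor and at 99.6 to 182 TPM in the others, and 9 of the 13 had a mean under 1 TPM.

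Transcript shares were read for the members whose protein forms differ. *Rarg-201*, which by the GENCODE annotation encodes the 458 residues of RARγ1, held 52.2% of the *Rarg* level in the marker-low tumor on 684 counts and 6.92% to 25.8% in the others on 12 to 100 counts. *Rarg-202*, with the 447 residues of RARγ2, held 38.7% there and 59.1% to 93.1% in the others. *Pparg-201*, with the 505 residues of PPARγ2, the form with the longer amino terminus, held 15.3% to 37.3% of *Pparg* in the 5 tumors. Its 74.7% in the marker-low tumor rested on 17 counts. *Rarb-201*, with 448 residues, held 84.5% of *Rarb* there. *Thra-201*, with the 492 residues of the form TRα2 that does not bind thyroid hormone, held 48.3% in that tumor and 50.4% to 85.6% in the others. The part of reads from the overlap with *Nr1d1* in the *Thra* shares was not tested. *Ppara* was the 1 gene of the 32 with under 80% of its level in transcripts annotated as coding, at 69.4%. *Ppara-205*, of 315 bases and with no defined coding sequence, held 38.4% of *Ppara* in tumor 3 of mouse 2 on 46.5 counts. Its share was 8.56% to 20.7% in the other tumors apart from the marker-low one, so part of the high *Ppara* of tumor 3 lies there. Counts of transcripts that share most of their exons are estimates, so these shares are less certain than the gene sums.

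**Figure D5:**
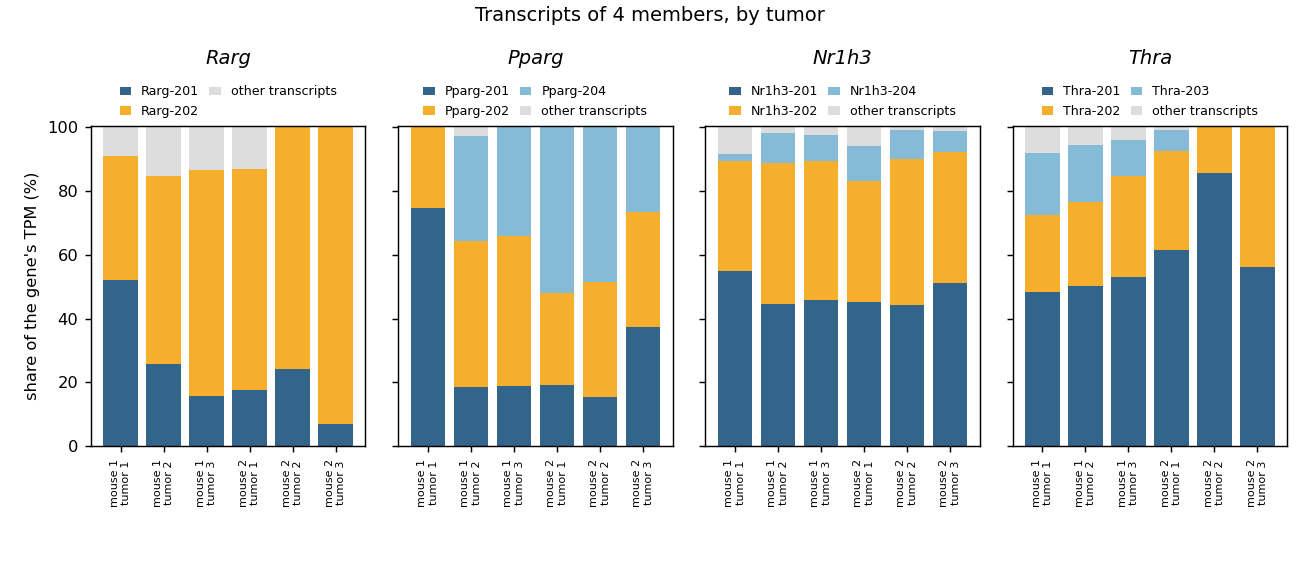
Share of each transcript in the TPM of its gene (bars, percent) in each tumor for *Rarg*, *Pparg*, *Nr1h3* and *Thra*, with grey for all other transcripts. *Rarg-201* holds 52.2% in the marker-low tumor and at most 25.8% in the others, while the 2 main *Nr1h3* transcripts keep shares of 34.3% to 55.0% in all 6 tumors.

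Without the marker-low tumor, the receptors of the other 5 tumors were more alike. By mean, *Rxra* led with 98.0 ± 39.2 TPM, followed by *Nr1h3* with 72.7 ± 11.1, *Ppara* with 67.9 ± 19.2, *Nr1i3* with 48.9 ± 14.97, *Nr2f6* with 39.7 ± 15.02, *Nr1h4* with 38.4 ± 7.67, *Nr1d1* with 36.6 ± 11.8, *Nr0b2* with 34.5 ± 13.8 and *Nr1i2* with 32.7 ± 8.60 TPM (SD, n = 5). No neighbors in this order were further apart than the larger of their SDs. These SDs are the spread between tumors. They ignore that the genes were measured in the same tumors, so they cannot decide the order within a tumor. 14 of the 30 genes whose mean in these tumors reached 1 TPM differed 2-fold or more between the highest and the lowest, and so did 37.0% of all 11324 genes. *Thra* (3.37-fold on the scale of TPM + 1) and *Nr0b2* (3.26-fold) differed most. 15 of the 30 were lowest in tumor 3 of mouse 2, as were 55.0% of all genes. Without that tumor 5 receptors differed 2-fold, against 18.5% of all genes, and after TMM scaling 6 did, against 25.1%.

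Mouse 2 was compared with mouse 1 to ask whether the animal of origin goes with receptor levels. With 6 tumors, 34 receptors were tested among 13268 genes, and 0 passed an adjusted p of 0.05 in either direction by edgeR's quasi-likelihood test with Benjamini-Hochberg adjustment, as did 0.0% of all genes. 4 of the 34 had an unadjusted p under 0.05, against 10.9% of all genes, and DESeq2 and limma-voom passed 0 receptors as well, beside 1.0% (higher) and 0.52% (lower) of all genes with DESeq2 and 0.0% with limma-voom. *Rarb* came closest, with 6.28 less on the log2 scale in mouse 2 (SE 1.97, adjusted p = 0.412 by edgeR), which rests mainly on the marker-low tumor. Without that tumor edgeR passed 0 receptors too, while 0.419% of all genes passed as higher and 0.837% as lower in mouse 2, and 3 receptors had an unadjusted p under 0.05, against 20% of all genes. The 3 were *Rarb* (−2.19, SE 0.67, adjusted p = 0.157 by edgeR), *Rxrg* (1.28, SE 0.42, adjusted p = 0.174 by edgeR) and *Nr2c2* (−0.44, SE 0.17, adjusted p = 0.234 by edgeR). *Rxrg* was higher in mouse 2 in 2 of its 3 tumors than in both tumors of mouse 1, at 4.84 and 5.01 TPM against 1.95 and 3.10 TPM, with 2.71 TPM in the other. Chosen after the data were seen, further fits without that tumor also passed 0 receptors, beside 5.85% higher and 4.39% lower over all genes with DESeq2, 1.32% and 2.24% with limma-voom, 0.15% and 0.98% with library size alone, 0.336% and 0.808% with DESeq2 size factors, and 0.00728% and 0.0% with tumors 2 and 3 of mouse 1 averaged.

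On the TPM scale, tumors 2 and 3 of mouse 1 were both above all 3 tumors of mouse 2 for 21 of the 30 receptors and both below for none, against 56.9% and 4.81% of all genes. The split depended on the scale: after TMM scaling 8 were above, *Nr1d1*, *Nr2f2*, *Nr2f6*, *Nr2c2*, *Nr3c1*, *Nr3c2*, *Ppard* and *Thra* (19.1% of all genes), and 5 below, *Nr1i3*, *Nr1h3*, *Nr1d2*, *Rxrg* and *Esrra* (21.9%). Of the genes in the 11 pathway lists, 0 passed with 6 tumors by edgeR. Without the marker-low tumor, *Stra6* alone passed, lower in mouse 2 (adjusted p = 0.0350 by edgeR), where it was listed at 0 in each tumor. With tumors 2 and 3 of mouse 1 averaged, 0 passed. The *Stra6* call rests on the 2.67 and 3.35 TPM of those tumors, which are among the low values near 2% of the marker-low tumor given above, and their part in it was not tested. The error in this comparison is the spread between tumors of 1 animal, so a p-value here does not measure the spread between mice.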

How the data were processed

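RNA of 6 tumors was sequenced by the authors as paired reads, from poly A libraries by the methods, although the labels name total RNA. Their deposited tables have the layout of Salmon and hold, for each transcript, an estimated count and a TPM value. The submitters' processing notes list GRCm38, BWA and Picard. For the index release and the strand setting, the sources used here give nothing.

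Transcripts were summed to genes by the GENCODE vM39 annotation, which was used for names and coding lengths only (114813 transcripts matched, 1733 did not). Positions and promoters are those of RefSeq on GRCm38.p6. Levels were compared on log2(TPM + 1) for genes whose mean reached 1 TPM. A tumor was said to lie apart at 4-fold from the median of the other 5, and tumors to differ among themselves at 2-fold, or by Dixon's ratio at the 95% critical value. Fold changes on this scale understate changes of low genes.

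Mouse 2 was compared with mouse 1 on estimated counts rounded to whole numbers, with edgeR 4.0.16 (TMM factors, filterByExpr, quasi-likelihood test) over all genes with Benjamini-Hochberg adjustment at 0.05. The SE is the absolute log2 fold change divided by the square root of F. DESeq2 1.42.0, limma 3.58.1 (voom), other scalings, no filter, the tumor number as a block and each tumor left out were alternatives. The fit was tested on simulated data. R 4.3.3 and Python 3.11.15 (numpy 2.4.6, pandas 2.3.3, matplotlib 3.10.9) were used.

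The 36 genes and the 11 pathway and 7 marker lists were chosen with earlier results of these data known. Values in every tumor are given for the 12 genes with the highest mean, the 8 with the largest ratio of highest to lowest over 6 tumors and the 6 over the 5 tumors, and the others by range. From a pathway list, the 3 genes with the highest mean, the 2 with the largest ratio over 6 tumors and those that passed an edgeR test could be named, and exceptions are marked. Some items are not reported here. Totals of 19130532 to 27681766 counts limit the precision of genes with few counts, and the floor of 3 counts covers counting error only.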

Additional observations from a re-analysis of the deposited data

Results flagged for a closer look

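For 12 of the 32 genes whose mean reached 1 TPM, tumor 1 of mouse 1 lay far from the other 5 on log2(TPM + 1). The measure is the gap from that tumor to its nearest neighbor as a share of the whole range, with 0.625 as the limit for 6 values. Chance passes about 1 in 20 groups, and 38.8% of all genes passed in these tumors.

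8 genes were far below the others there. The gap was 0.806 of the range for *Nr1i2*, 0.793 for *Nr1i3*, 0.863 for *Nr1h3*, 0.828 for *Nr1h4*, 0.625 for *Nr0b2*, 0.804 for *Nr5a2*, 0.812 for *Ppara* and 0.727 for *Pparg*. 9.15% of all genes were low in that way. *Nr0b2* lay at the limit, since tumor 3 of mouse 2, at 14.0 TPM, was also under the rest.

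4 genes were far above, with gaps of 0.867 for *Nr1d2*, 0.854 for *Nr2f1*, 0.812 for *Rarb* and 0.641 for *Esr1*, beside 28.5% of all genes. *Thra* was 5.83-fold above the highest of the others and did not pass, because the other 5 tumors were themselves spread out.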

How the results depend on the processing

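In every fit, 0 nuclear receptor genes passed between the mice. Over all genes the count of 0 became 202 with DESeq2 (133 higher, 69 lower in mouse 2), and 0 to 168 when 1 tumor was left out, 168 being without tumor 1 of mouse 1. Alternatives without that tumor, chosen after seeing the data, gave 1369 with DESeq2, 477 with limma-voom, 151 with library size alone, 153 with DESeq2 size factors and 1 with tumors 2 and 3 of mouse 1 averaged. Over the pathway lists, counts of 0 became 2 with DESeq2, 0 to 1 with a tumor left out, and, without tumor 1 of mouse 1, 12 with DESeq2, 5 with limma-voom, 1 with library size alone, 1 with DESeq2 size factors and 0 with the average. The causes were not tested.

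The tumor number as a replicate block gave 0 genes, with 800 at an unadjusted p under 0.05 against 1449 without it. The numbers do not pair the tumors, since same-numbered tumors correlated at 0.03, −0.04 and 0.05 in their deviations from the group means.

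The 14 genes that differed 2-fold among the 5 tumors became 6 after TMM scaling, 8 in TPM without mitochondrial genes, 20 with a pseudocount of 0.1, 10 at a mean of at least 5 TPM and 5 to 14 with a tumor left out, 5 being without tumor 3 of mouse 2. The mean levels of *Nr1h2*, *Nr3c1*, *Nr6a1*, *Rxrb*, *Rara*, *Thrb* and *Esrra* moved by more than an SD in TPM without mitochondrial genes, and the other 25 did not. That scale raised the mean of every gene, such as *Esrra* from 15.4 to 20.8 TPM and *Nr1i2* from 27.3 to 37.7 TPM. Which genes moved by this rule therefore depends on the size of their SD. Genes such as *Hnf4g* and *Vdr*, at 4 counts or fewer per tumor, could not be compared at this depth.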
